A study of Sus scrofa with 12 samples.

Results

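CLDN4 encodes claudin-4, a membrane protein of the tight junctions that seal simple epithelia, and it is described here beside 9 other genes of simple epithelium in the back fat of young pigs. The set was named by symbol: CLDN4, CLDN3, CLDN7, EPCAM, CDH1, KRT8, KRT18, KRT19, ELF3 and ESRP1. Of these 10 symbols 9 were matched to a pig Ensembl gene ID among the 24358 gene IDs of the count table, and KRT19 is not analysed here. CLDN4 entered the set because it had differed between the breeds at 80 d. The values of that comparison are therefore given as a description, without a test.

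RNA was measured in subcutaneous fat from the middle of the back of Yorkshire pigs (YK, a commercial breed) and Guangdong small-eared pigs (GS, an indigenous breed of southern China), all entered as wild type, at 9 d and 80 d of age. There were 3 libraries in each of 4 groups, written YK_9d, GS_9d, YK_80d and GS_80d, and 12 libraries in all. The labels do not say whether the 3 samples of a group came from separate animals or litters, so the p-values reflect how far these samples differ, and that spread can be technical. The labels enter adipocyte as the cell type of what was whole tissue. The 10 adipocyte markers matched, such as ADIPOQ and PLIN1, were above 0 in every library.

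Claudins span the membrane of neighbouring cells and set which ions and solutes pass between them. CLDN3, CLDN4 and CLDN7 are the claudins usually found together in simple and glandular epithelium, where EPCAM and E-cadherin (CDH1) hold the cells to each other and keratins 8 and 18 form the cytoskeleton. Fat cells, fibroblasts and endothelium of adipose tissue are not epithelia, and in back fat such transcripts can come from skin appendages that lie beside or within it. In bulk tissue, fewer cells of a type and less RNA per cell cannot be told apart.

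CLDN4 stood higher in every YK library than in any GS library, at both ages. Levels are CPM, counts relative to the library total after scaling between libraries with TMM factors. In YK_9d it stood at 46.2, 150.0 and 134.8 CPM in replicates 1, 2 and 3, and in GS_9d at 2.10, 5.75 and 13.7 CPM. In YK_80d it stood at 527.2, 43.0 and 257.2 CPM, and in GS_80d at 0.907, 2.20 and 1.34 CPM. The lowest YK library, YK_80d replicate 2, thus stood above the highest GS library, GS_9d replicate 3. A sequenced fragment adds about 3.74 units to the deposited counts, so these levels rest on about 808 to 1924 fragments per library in YK_9d, 32 to 205 in GS_9d, 684 to 6621 in YK_80d and 13 to 37 in GS_80d. The order of the group means was YK_80d at 276 ± 243 CPM (SD, n = 3), YK_9d at 110 ± 56.1, GS_9d at 7.19 ± 5.95 and GS_80d at 1.48 ± 0.659. The YK ages overlapped, and so did the GS ages. Within YK_80d the highest library was 12.2-fold above the lowest, and within GS_9d 6.55-fold.

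**Figure D1:**
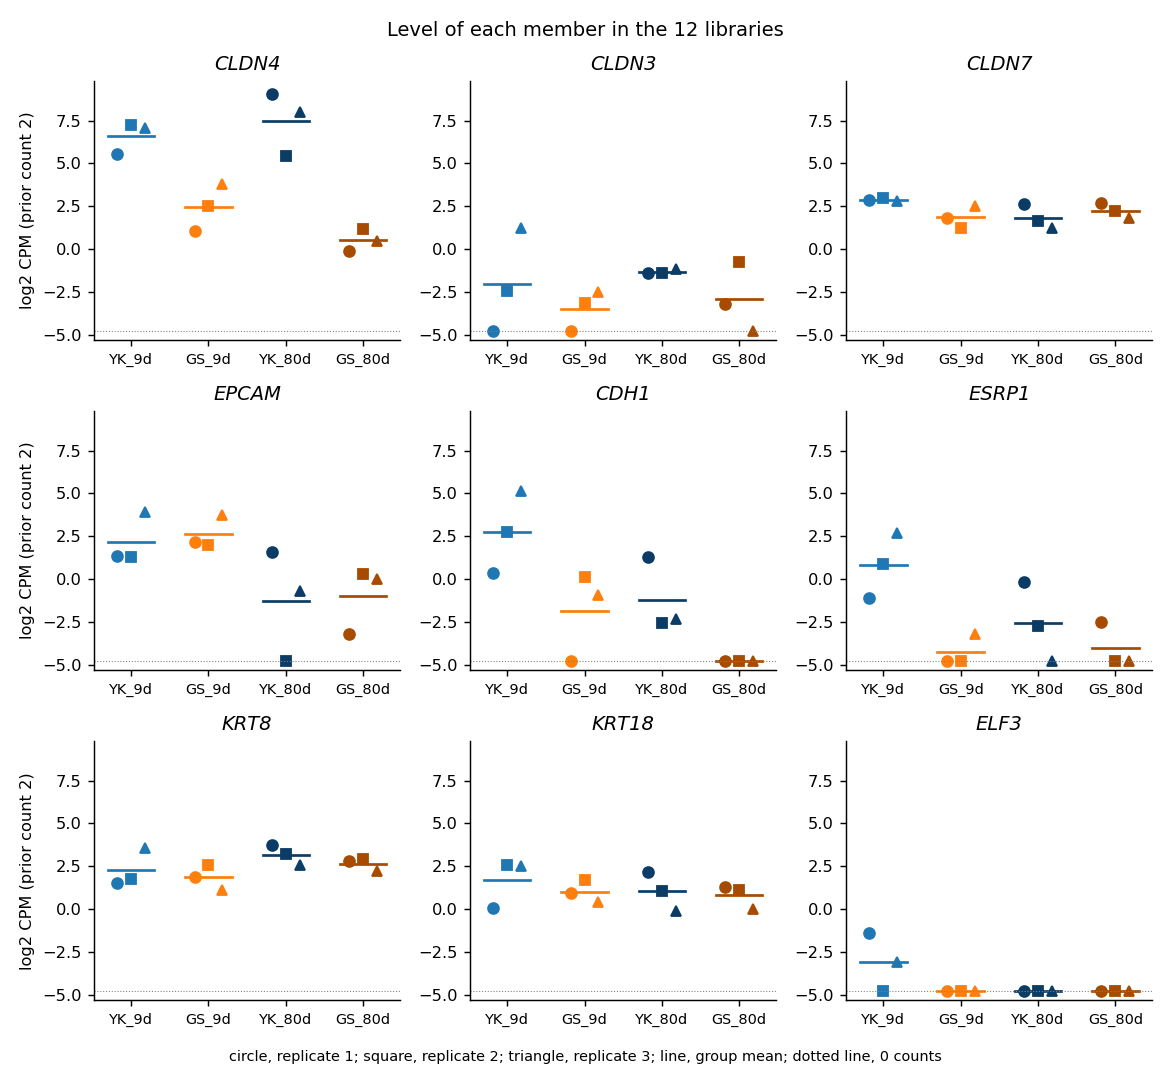
Level of the 9 matched genes in each library as log2 CPM with a prior count of 2, by group; each point is 1 library, its shape gives the replicate number, the lines are group means of 3 libraries and the dotted line marks a count of 0. CLDN4 stood apart between the breeds at both ages, while KRT8, KRT18 and EPCAM overlapped.

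The 9 d libraries had no part in choosing CLDN4, but the spread behind the tests is estimated over all 12 libraries, those at 80 d included. CLDN4 was lower in all 3 GS libraries, by a log2 difference (GS minus YK) of -3.94 ± 0.96 (SE), a fitted 15.3-fold, which did not pass the threshold of 0.05 by edgeR's quasi-likelihood test (adjusted p = 0.0899, Benjamini-Hochberg over 15425 genes). By DESeq2 the difference was -3.95 and passed (adjusted p = 0.000763). Fitted on the 6 libraries at 9 d alone it was -3.96 ± 0.79 and did not pass (edgeR adjusted p = 0.119). With 1 of the 12 libraries left out, the edgeR adjusted p ran from 0.0460 to 0.273 and passed in 1 of 12 fits, the one without YK_80d replicate 2. Of the 8 genes of the set that could be tested, none passed by edgeR or by limma-voom, 3 had an unadjusted p under 0.05 by edgeR, and CLDN4 and ESRP1 passed by DESeq2. Among all genes 1.02% passed by edgeR and 0.804% by limma-voom, 14.4% had an unadjusted p under 0.05 by edgeR, and 6.13% of those with an adjusted p passed by DESeq2. Groups did not overlap for 4 of the 8, CLDN4, CLDN7, CDH1 and ESRP1, each of them lower in GS, against 9.54% of all genes lower without overlap. CDH1 and ESRP1 were read mostly in YK_9d. ESRP1 passed the filter on low counts only through that group, so that it had to be lower in GS, and the count is no support.

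CLDN3 and CLDN7 did not show the same levels as CLDN4. CLDN3, which lies next to CLDN4 in the RefSeq gene order of the pig (Sscrofa11.1), was read from about 33 fragments in YK_9d, 3 in GS_9d, 15 in YK_80d and 10 in GS_80d. In YK_9d it stood at 0, 0.146 and 2.35 CPM, so nearly all of that group's reads were in replicate 3. In YK_80d, where CLDN4 was highest, CLDN3 stood at 0.341, 0.353 and 0.414 CPM, within the range of the GS_80d libraries at 0.0726, 0.554 and 0 CPM. A count of 3 fragments, the limit that a count of 0 allows, corresponds to 0.172 to 0.239 CPM in these libraries and covers counting error only. CLDN7, a claudin also found along the side membranes of epithelial cells, stood at 7.34, 7.82 and 6.99 CPM in YK_9d and at 3.47, 2.28 and 5.79 CPM in GS_9d. In YK_80d it stood at 6.17, 3.09 and 2.36 CPM and in GS_80d at 6.33, 4.58 and 3.53 CPM. CLDN7 was thus lower in all 3 GS libraries at 9 d, with a log2 difference of -0.94 ± 0.44 (edgeR adjusted p = 0.359), and overlapped at 80 d with a difference of 0.31 ± 0.44 (SE).

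The adhesion proteins varied widely between libraries of the same group. EPCAM, a surface protein of most simple epithelia, stood at 2.49, 2.44 and 15.1 CPM in YK_9d and 4.43, 3.95 and 13.5 CPM in GS_9d. At 80 d it stood at 3.002, 0 and 0.579 CPM in YK and 0.0726, 1.19 and 0.990 CPM in GS. The breeds overlapped at both ages, and the log2 difference at 9 d was 0.13 ± 1.37 (edgeR adjusted p = 0.983). CDH1, E-cadherin, stood at 1.24, 6.61 and 35.0 CPM in YK_9d and 0, 1.07 and 0.502 CPM in GS_9d. In YK_80d it stood at 2.38, 0.135 and 0.166 CPM, and in GS_80d at 0 in every library. At 9 d CDH1 was lower in all 3 GS libraries, the nearest being about 22 fragments in YK against 15 in GS, and its difference of -4.76 ± 1.88 did not pass (edgeR adjusted p = 0.293). At 80 d the YK level rested on about 34 fragments, of which 30 were in replicate 1. The 2 fragments in each of replicates 2 and 3 lie within what a count of 0 allows, so those libraries cannot be told apart from GS_80d.

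The keratins varied less within groups than the adhesion proteins did. KRT8, a keratin of simple epithelium, stood at 2.83, 3.42 and 11.98 CPM in YK_9d, 3.72, 5.90 and 2.13 in GS_9d, 13.4, 9.49 and 5.88 in YK_80d and 6.88, 7.57 and 4.67 in GS_80d. KRT18, its pairing partner and neighbour in the gene order, stood at 1.04, 5.84 and 5.80 CPM in YK_9d, 1.92, 3.18 and 1.31 in GS_9d, 4.49, 2.07 and 0.890 in YK_80d and 2.47, 2.12 and 0.990 in GS_80d. All 4 groups overlapped for both genes. The log2 difference at 9 d was -0.63 ± 0.56 for KRT8 (edgeR adjusted p = 0.686) and -0.98 ± 0.73 for KRT18 (0.605). With YK_9d replicates 2 and 3, the libraries richest in skin transcripts, left out, these differences turned to 0.47 and 1.04. YK_9d was then replicate 1 alone, assumed to vary as the other groups do (edgeR adjusted p = 0.864 and 0.785).

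The regulators were scarce. ESRP1, which directs epithelial forms of splicing, stood at 0.428, 1.81 and 6.38 CPM in YK_9d, and in GS_9d at 0 in 2 libraries and at about 1 fragment in the other. In YK_80d it stood at 0.873, 0.118 and 0 CPM, and in GS_80d about 2 fragments were read in all. Its difference at 9 d was -6.77 ± 2.23 by edgeR (adjusted p = 0.176) and -6.91 by DESeq2 (adjusted p = 0.0147), a fitted value against a group with about 1 fragment. ELF3, an epithelial transcription factor, was at 0 in 10 of the 12 libraries and did not pass the filter on low counts. Its reads, about 7 fragments, were in YK_9d replicates 1 and 3. ELF3 was at 0 in all 3 YK_80d libraries, including the 2 with the most CLDN4.

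Library by library, CLDN4 ranked as the 8 other members together did in some libraries and not in others. The summed CPM of the 8 other members was highest in YK_9d replicate 3, at 83.6, where CLDN4 ranked 4th of the 12 libraries. YK_80d replicate 1 had the most CLDN4 and the next highest sum, 30.7 CPM. YK_9d replicate 2 ranked 3rd for both, and GS_9d replicate 1 ranked 10th for both. YK_80d replicate 3 ranked 2nd for CLDN4 and 11th for the sum, at 10.3 CPM. That sum nearly equals that of GS_80d replicate 3, at 10.2 CPM, in which CLDN4 stood at 1.34 CPM against 257.2. YK_9d replicate 1 and GS_80d replicates 1 and 2 likewise had sums of 15.7, 16.0 and 16.0 CPM, with CLDN4 at 46.2, 0.907 and 2.20 CPM.

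The ratio of CLDN4 counts to the summed counts of the 8 other members needs no scaling between libraries, and it was chosen after the values had been seen. It was 2.94, 5.34 and 1.61 in YK_9d, 0.155, 0.349 and 0.584 in GS_9d, 17.2, 2.82 and 25.0 in YK_80d, and 0.0568, 0.137 and 0.132 in GS_80d. All 6 YK libraries lay above 1 and all 6 GS libraries below 1, but gene length enters such a ratio, so only its change between libraries can be read. Against CLDN7 alone the ratio was 6.29 to 19.3 in YK_9d and 0.603 to 2.52 in GS_9d, and against KRT8 alone 11.3 to 43.9 and 0.563 to 6.43. The breeds did not overlap at 9 d in any of these ratios. With 3 libraries against 3 an exact permutation test cannot go below p = 0.10, and none was run. With the mean log2 level of the 7 other tested members as a covariate, a fit added after the values had been seen, the CLDN4 difference at 9 d was -2.66 ± 0.77 (edgeR adjusted p = 0.186), against -3.94 without it.

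**Figure D2:**
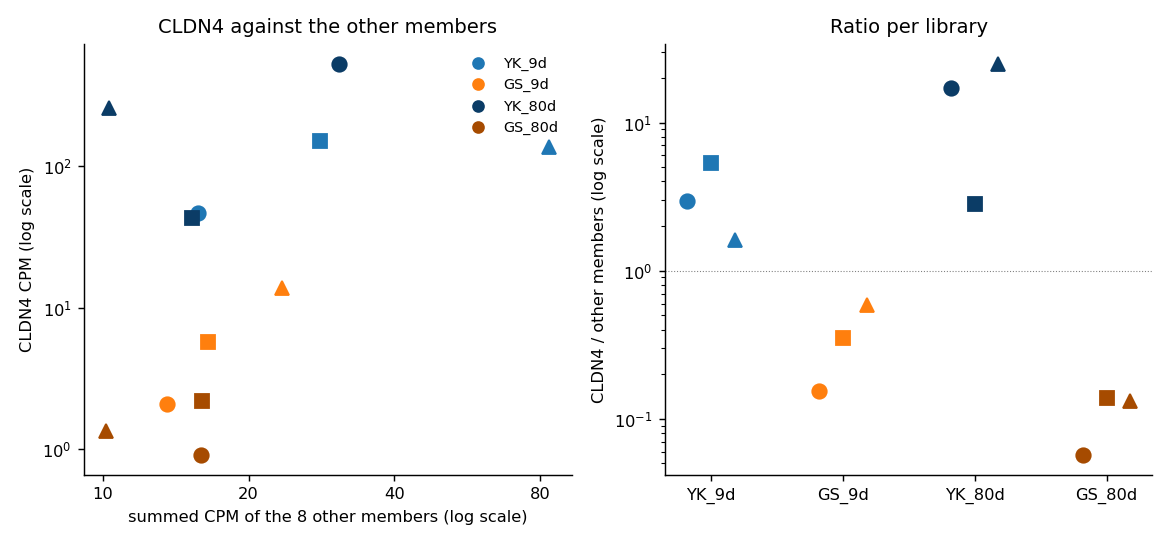
Left, CLDN4 CPM against the summed CPM of the 8 other members in each library, both on log scales; right, the ratio of CLDN4 counts to the summed counts of the other members by group, on a log scale, with a dotted line at 1. Colours give the group and shapes the replicate number. The ratios ran from 1.61 to 25.0 in the YK libraries and from 0.0568 to 0.584 in the GS libraries.

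Within groups, where the breed and age means are removed, the coefficients of CLDN4 with the other members were positive, but none passed after adjustment. Each library's log2 CPM was set against its group mean, and the coefficients were tested by exact permutation of CLDN4 within the groups (1296 arrangements, two-sided, 12 libraries, adjusted over the 7 genes compared). EPCAM had the highest coefficient, with Pearson r = 0.81 (exact permutation p = 0.0170, adjusted p = 0.119) and Spearman rho = 0.69 (exact permutation p = 0.0424, adjusted p = 0.241). In YK_80d both genes were highest in replicate 1 and lowest in replicate 2, whereas in YK_9d CLDN4 was highest in replicate 2, where EPCAM was lowest. The coefficient draws on EPCAM values at the limit of detection, with no fragment in YK_80d replicate 2 and about 1 in GS_80d replicate 1. CDH1 followed with r = 0.72 (exact permutation p = 0.0648, adjusted p = 0.160) and rho = 0.66 (exact permutation p = 0.0880). CLDN3 had r = 0.46 (exact permutation p = 0.0687, adjusted p = 0.160) and rho = 0.48 (exact permutation p = 0.103). ESRP1, CLDN7 and KRT18 had r = 0.38, 0.37 and 0.29, with rho = 0.28, 0.43 and 0.39 and adjusted exact permutation p = 0.550 for each r. KRT8 had r = 0.09 and rho = 0.10 (adjusted exact permutation p = 0.838 and 0.804). With 1 library left out, EPCAM passed in 1 of 12 cases, without YK_9d replicate 2, and its adjusted exact permutation p ran from 0.0486 to 0.292. Without the 2 libraries farthest from the median of CLDN4 the coefficients were 0.75 for EPCAM, 0.63 for CDH1, 0.56 for CLDN3 and -0.09 for KRT8. Among all 15424 other genes tested, 0.344% had a higher within-group coefficient with CLDN4 than EPCAM, 1.37% than CDH1, 10.1% than CLDN3 and 39.6% than KRT8.

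**Figure D3:**
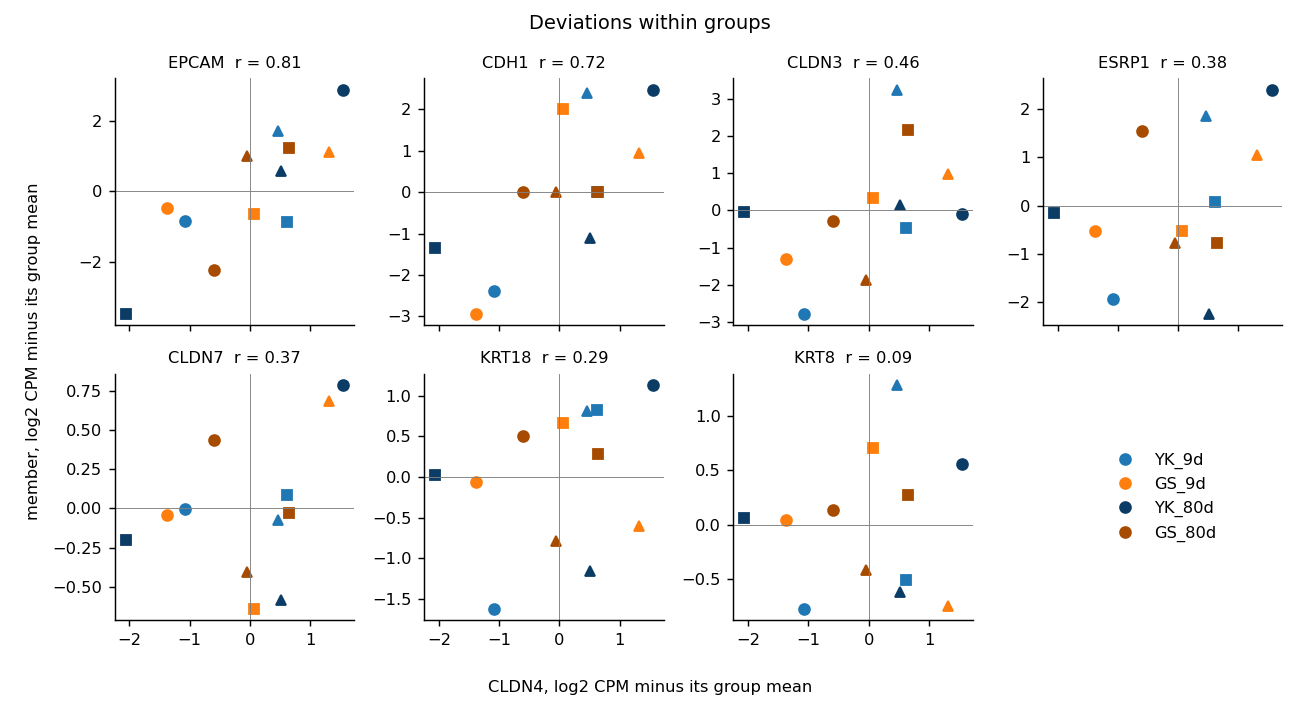
Deviation of each library from its group mean, in log2 CPM with a prior count of 2, for CLDN4 (horizontal axes) and each of 7 other members (vertical axes, scaled separately); colours give the group and shapes the replicate number (circle 1, square 2, triangle 3). The Pearson coefficients above the panels run from 0.81 for EPCAM to 0.09 for KRT8.

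Across all 12 libraries, with the group means left in, the coefficients of the same genes came in another order. These are a description with no test, since the group means of CLDN4 led to its choice and the libraries fall into groups. CDH1 had r = 0.74 (rho = 0.79), ESRP1 0.62 (0.47), CLDN3 0.52 (0.51), KRT18 0.32 (0.23), KRT8 0.26 (0.17), CLDN7 0.22 (0.22) and EPCAM 0.18 (0.17). Without the 2 libraries farthest from the median of CLDN4, GS_80d replicate 1 and YK_80d replicate 1, CDH1 had r = 0.70 and EPCAM -0.07. Among the 15424 other genes 3.44% had a higher coefficient than CDH1, 8.88% than ESRP1, 14.1% than CLDN3 and 36.4% than EPCAM.

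The genes with a symbol whose levels were most like those of CLDN4 over the 12 libraries were none of the set. They were SYNGR2 (r = 0.95, rho = 0.95), CDHR1 (0.94, 0.87), LYPD2 (0.94, 0.92), EMP3 (0.93, 0.92), UBE2M (0.93, 0.92), CMTM8 (0.92, 0.90), GJA4 (0.92, 0.90), RANBP1 (0.92, 0.87), VPS72 (0.92, 0.87) and HSPB1 (0.92, 0.94). Except for CDHR1 and LYPD2, they spanned a far smaller range than CLDN4. SYNGR2, a vesicle protein, ran from 37.0 to 48.0 CPM in YK_9d, 20.3 to 31.0 in GS_9d, 29.0 to 49.2 in YK_80d and 18.7 to 25.1 in GS_80d. CDHR1, a member of the cadherin superfamily known from photoreceptors, ran from 4.65 to 9.26 CPM in YK_9d, 0 to 0.538 in GS_9d, 2.05 to 21.1 in YK_80d and 0 to 0.101 in GS_80d, with a log2 difference at 9 d of -5.31 ± 1.49 (edgeR adjusted p = 0.124). HSPB1, a small heat shock protein, ran from 256 to 576 CPM in YK_80d, against 110 to 163 in GS_80d.

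A wider list of 35 epithelial genes, of which 30 were matched and 27 tested, gave mostly negative differences at 9 d. Their summed level overlapped between the breeds, at 235 to 541 CPM in YK_9d and 224 to 367 in GS_9d. That overlap rested on MAL2, 1 of the 30 genes, at 74.4, 92.9 and 196 CPM in YK_9d and 113, 265 and 180 in GS_9d. By edgeR 0 of 27 passed and 11 had an unadjusted p under 0.05, DESeq2 called 7, each lower in GS, and limma-voom called 0, beside the shares of 1.02%, 14.4%, 6.13% and 0.804% over all genes. The differences were negative for 26 of 27, with a median of -1.54 against 0.01 over all genes. The breeds did not overlap for 13, each lower in GS, against 9.54% of all genes lower without overlap. Genes that passed the filter on low counts only through YK_9d had to differ, so these counts are no support. An example was SPINT2, an inhibitor of epithelial proteases, at 17.6, 27.8 and 64.8 CPM in YK_9d and 9.22, 10.9 and 11.5 in GS_9d (-1.80 ± 0.41, edgeR adjusted p = 0.0648).

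The order of these YK_9d libraries was shared by markers of skin. KRT71, a keratin of the hair follicle, stood at 1.12, 7.61 and 13.7 CPM in YK_9d and at 0 in the 9 other libraries, and it was lower in GS_9d (edgeR adjusted p = 0.0449). It was the 1 of 13 tested keratinocyte and hair follicle genes past the threshold by edgeR at 9 d, while DESeq2 called 4 others of the list, each lower in GS, and limma-voom called 0, against 1.02%, 6.13% and 0.804% of all genes. KRT71 passed the filter on low counts only through YK_9d, so it had to be lower in GS_9d. The summed level of the 16 genes of that list was 91.1 to 244 CPM in YK_9d, 52.8 to 84.8 in GS_9d, 39.9 to 71.9 in YK_80d and 60.7 to 74.0 in GS_80d, with 2 or 3 genes at 0 in each YK_9d library and 7 to 11 at 0 in each of the others. In every library but YK_9d replicate 3 that sum was mostly DSP, a desmosome protein not restricted to skin. DSP stood at 67.9 to 74.4 CPM in YK_9d and at 50.02 to 79.4 CPM in the GS libraries. Without DSP, a sum added after the values had been seen, the 15 other genes summed to 16.7, 55.3 and 176 CPM in YK_9d and to 2.80 to 11.7 CPM in GS_9d. In YK_80d they summed to 17.1, 7.72 and 4.10 CPM in replicates 1, 2 and 3, and in GS_80d to 9.83 to 11.1 CPM. YK_80d replicate 1 thus had both the most CLDN4 and the most of these transcripts outside YK_9d. Replicate 3, with CLDN4 at 257.2 CPM, had a smaller sum than any GS_80d library, but that order rested on SBSN, 1 of the 15 genes. SBSN stood at 0.186 CPM in YK_80d replicate 3 and at 7.42, 5.24 and 6.11 CPM in GS_80d. Without YK_9d replicates 2 and 3, which leaves YK_9d as 1 library assumed to vary as the other groups do, the CLDN4 difference at 9 d was -2.69 (edgeR adjusted p = 0.491). The part of skin transcripts in the CLDN4 values was not tested further.

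Markers of glands and lymphocytes differed between the YK_80d libraries, some in the order of CLDN4 and some not. Of 17 matched genes of mammary and glandular epithelium, the milk protein genes CSN2, CSN3 and LALBA were at 0 in all 12 libraries, and the casein CSN1S1 had about 1 fragment in each of YK_9d replicate 3 and YK_80d replicate 1, at 0.0811 and 0.0852 CPM. The sum of the 17 was 67.4, 115 and 74.7 CPM in YK_80d and 169, 55.0 and 75.1 CPM in GS_80d, and 8 to 13 genes were at 0 in each of the 12 libraries. LCN2, a secreted protein that is not restricted to glands, made up 147 of the 169 CPM in GS_80d replicate 1. Within YK_80d, LTF, AQP5 and KRT7 peaked in replicate 1, where CLDN4 was highest. LTF, the milk and gland protein lactoferrin, stood at 4.60, 0.0673 and 0 CPM in YK_80d, AQP5, a water channel of glands, at 2.21, 0 and 0 CPM, and KRT7, a keratin of ducts, at 2.96, 0 and 0 CPM. In YK_80d replicate 3, with the next most CLDN4, all 3 were at 0. Their highest levels were in YK_9d replicate 3, at 35.4, 9.50 and 25.4 CPM for LTF, AQP5 and KRT7. In YK_9d, however, CLDN4 was highest in replicate 2. Other genes of the list, read at higher levels in YK_80d, did not peak in YK_80d replicate 1. LCN2 stood at 31.1, 74.5 and 23.5 CPM in YK_80d, and SLC12A2 at 24.5, 39.4 and 50.3 CPM. The mesothelial list, of which 6 genes were matched, summed to at most 2.05 CPM in any library. T and NK cell genes summed to 108, 536 and 801 CPM in YK_80d replicates 1, 2 and 3, and to at most 157 elsewhere, whereas CLDN4 was highest in replicate 1 and lowest in replicate 2. B cell and lymph node genes summed to 164, 95.6 and 95.7 CPM in the same libraries, highest in replicate 1 as CLDN4 was, and to 32.6 to 93.4 CPM elsewhere. The 3 libraries with the most skeletal muscle transcripts were YK_80d replicate 3 (a summed 14917 CPM), GS_9d replicate 3 (13088 CPM) and YK_9d replicate 1 (2461 CPM), followed by GS_9d replicate 2 (107.3 CPM) and then at most 13.7 CPM. Without those 3 libraries the CLDN4 difference was -5.18 at 9 d (edgeR adjusted p = 0.113) and -7.58 at 80 d. Heat shock genes summed to 5511 to 6126 CPM in YK_80d and 2377 to 3720 in the other 3 groups. The part of the gland, lymphocyte and heat shock transcripts in the CLDN4 values was not tested.

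**Figure D4:**
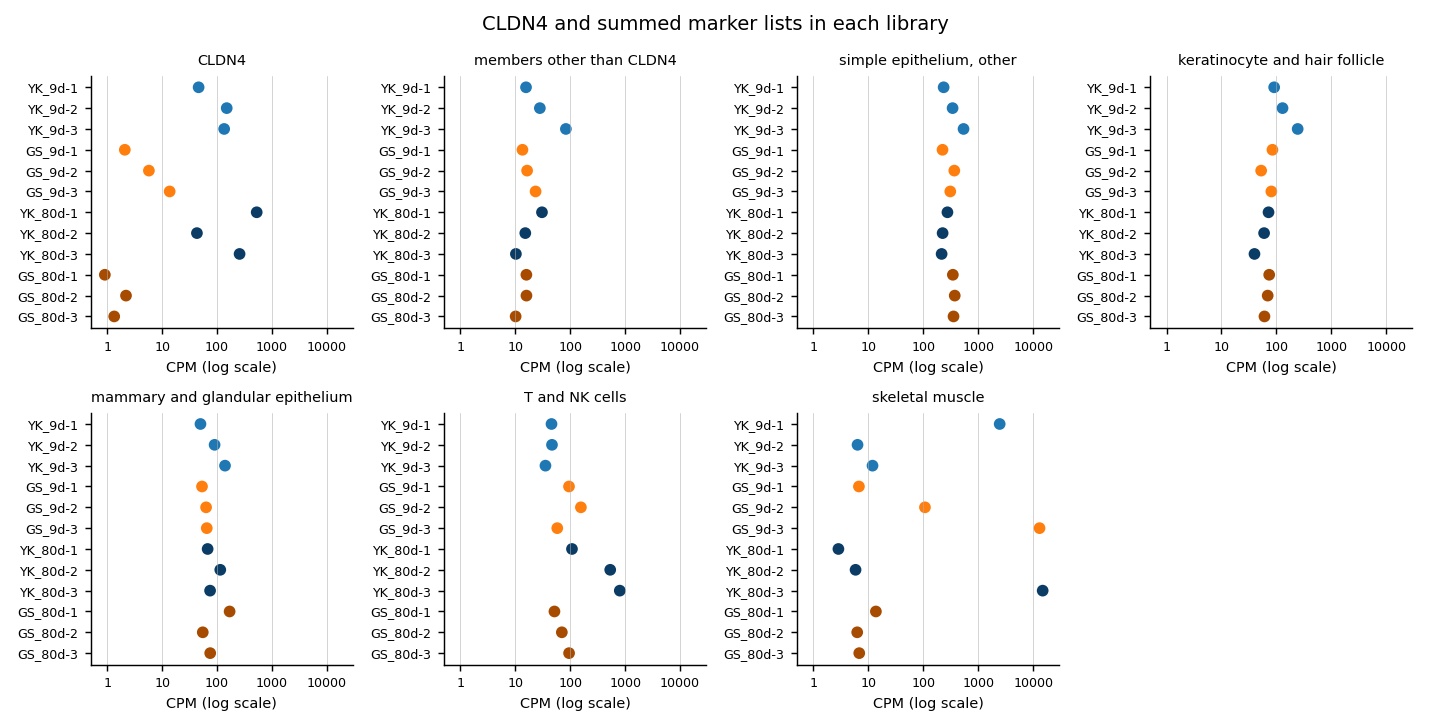
CPM of CLDN4 and summed CPM of 6 gene lists in each of the 12 libraries (group and replicate number on the vertical axis), on 1 common log scale; the listed genes are those matched to an ID. CLDN4 ran from 0.907 to 527.2 CPM, while the 8 other members together ran from 10.2 to 83.6 CPM.

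The age differences of CLDN4 had opposite signs in the breeds, with overlap between the ages in each. Its libraries at 80 d are those it was chosen from, so its age differences carry no test. They were 1.32 ± 0.87 on the log2 scale in YK and -2.27 ± 0.91 in GS (80 d minus 9 d, ± SE). The YK difference was 0.46 without YK_80d replicate 1 and 1.84 without YK_80d replicate 2, and the GS difference was -1.38 without GS_9d replicate 3. For the 7 other tested genes the age comparisons share libraries with the breed comparison at 80 d. None of the 7 passed in YK by edgeR, DESeq2 or limma-voom, and by edgeR none had an unadjusted p under 0.05. In GS none passed by edgeR or limma-voom, 1 had an unadjusted p under 0.05 by edgeR, and DESeq2 called CDH1 (-7.40, adjusted p = 0.0178, a fitted value since CDH1 was at 0 throughout GS_80d). Over all genes 1.21% passed in YK and 2.65% in GS by edgeR, 5.81% and 9.77% by DESeq2 and 0.467% and 3.26% by limma-voom, and 13.5% and 20% had an unadjusted p under 0.05 by edgeR.

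EPCAM was the member with the largest drop with age in GS among those read in both groups. All 3 GS_80d libraries lay below all 3 GS_9d libraries, as 16.5% of all genes did, with a log2 difference of -3.28 ± 1.50 (edgeR adjusted p = 0.255), and in YK the difference was -2.48 ± 1.45 (adjusted p = 0.526) with overlap. CLDN7 was lower in all 3 YK_80d libraries than in YK_9d, as 8.05% of all genes were (-0.93 ± 0.44, edgeR adjusted p = 0.388) and differed by 0.32 ± 0.44 in GS (adjusted p = 0.732). KRT8 differed by 0.66 ± 0.56 in YK and 0.70 ± 0.56 in GS (edgeR adjusted p = 0.703 and 0.522). Of the wider epithelial list 1 of 27 passed in YK, SPINT2, which was lower at 80 d with 11.4, 8.44 and 9.17 CPM (-1.93 ± 0.41, edgeR adjusted p = 0.0473). In GS 0 of 27 passed by edgeR, 3 had an unadjusted p under 0.05, and DESeq2 called 3 and limma-voom 1. Over all genes the share passing by edgeR in YK was 1.21%. In GS the shares over all genes were 2.65%, 20%, 9.77% and 3.26% in the order of those 4 counts. PROM1, a membrane protein of epithelial and stem cells, was called in GS by DESeq2 and limma-voom (edgeR 1.13 ± 0.29, adjusted p = 0.0584).

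At 80 d, the comparison from which CLDN4 was chosen, the fitted differences of 6 of the 7 other tested members were smaller than that of CLDN4. CLDN4 had a log2 difference (GS minus YK) of -7.53 ± 1.14 (SE), between -8.03 and -6.65 when any 1 library was left out. The differences were -0.81 ± 1.89 for CLDN3, 0.31 ± 0.44 for CLDN7, -0.66 ± 1.40 for EPCAM, -0.59 ± 0.56 for KRT8, -0.42 ± 0.72 for KRT18 and -2.74 ± 1.88 for ESRP1. That of CDH1 was -8.62 ± 2.96, a fitted value that is no bound, since GS_80d was at 0 and 30 of about 34 YK fragments were in 1 library. ELF3 was at 0 in all 6 libraries of that age. CLDN4 did not overlap, CDH1 did not by values within the limit of a count of 0 in YK replicates 2 and 3, and over all genes 31.4% did not overlap and 6.12% passed.

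Other claudins and the genes beside CLDN4 were read to place its values. Of 18 other claudins 14 were matched and 6 tested at 9 d, where none passed by edgeR, DESeq2 or limma-voom and 1 had an unadjusted p under 0.05 by edgeR. CLDN1, a claudin of skin and liver, stood at 9.45, 5.42 and 33.3 CPM in YK_9d and 10.8, 14.9 and 9.65 in GS_9d (-0.45 ± 0.52, edgeR adjusted p = 0.783). CLDN10, a claudin of ion-transporting epithelia, stood at 0.554, 0.589 and 0.786 CPM in YK_80d and 4.44, 3.94 and 2.57 in GS_80d, higher in GS, the side opposite to CLDN4. CLDN22 was on the same side as CLDN4, at 0.468, 0.505 and 0.766 CPM in YK_80d. In GS_80d it stood at 0.109, 0.0633 and 0.0504 CPM, within what a count of 0 allows. Of the 8 tested genes of the list around CLDN4 none passed at 9 d by edgeR, DESeq2 or limma-voom, with 2 at an unadjusted p under 0.05 by edgeR. For both lists the shares over all genes were 1.02%, 6.13% and 0.804% passing by the 3 tools in that order. By edgeR 14.4% of all genes had an unadjusted p under 0.05. METTL27, the next gene on the side away from CLDN3, stood at 8.06, 8.05 and 10.4 CPM in YK_9d and 12.8, 28.3 and 10.9 in GS_9d, higher in GS (0.97 ± 0.37, edgeR adjusted p = 0.2501). ABHD11, on the far side of CLDN3, differed by 0.18 ± 0.27 (edgeR adjusted p = 0.843) and ELN, which encodes elastin, by 0.15 ± 0.39 (0.920). The sources used here do not say whether reads of overlapping or antisense genes were kept apart.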

How the data were processed

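Expected counts per gene, unscaled between the 12 libraries, were deposited by the authors in 1 table. Total RNA (TRIzol) went into KAPA stranded libraries, per the labels' protocols. The aligner and counter are not given in the sources consulted. The build mm10 (mouse) appears in the submitters' processing notes although every gene ID is a pig ID, so coordinates were not used. Every value was already whole. Totals ran from 45435480 to 60993349 units per library, and small values cluster at multiples of about 3.74, which was taken as 1 fragment.

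Symbols came from the supplied name table, which matched 14692 of the 24358 genes. Genes passing edgeR's filterByExpr were tested, 15425 in all. Counts were scaled with TMM (0.888 to 1.10) and fitted with edgeR 4.0.16 in R 4.3.3, by a robust quasi-likelihood model over all 12 libraries with 4 groups as terms (8 residual degrees of freedom). Tests were two-sided, adjusted by Benjamini-Hochberg over all genes tested, with a threshold of 0.05. SE is the log2 difference over the square root of F. DESeq2 1.42.0 and limma-voom (limma 3.58.1) were alternatives; genes that DESeq2 gave no adjusted p were left out of its shares. The procedure was tested on simulated data. No 2 libraries of a group agreed within sampling noise (chi-square per degree of freedom at least 35.6).

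The members, gene lists and tests were chosen with earlier results of these data known. Genes named are the set, the 10 genes most like CLDN4, its neighbours, the other claudins with the highest levels or past the threshold, and up to 4 per list past the threshold. PROM1, MAL2, MYO5B, ESRP2, DSP, SBSN, LCN2, SLC12A2, LTF, AQP5, KRT7, CLDN22 and the milk protein genes were chosen after their values were seen.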

Additional observations from a re-analysis of the deposited data

How the results depend on the processing

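The CLDN4 difference at 9 d kept its sign in every alternative. It ran from -4.82 to -3.51 when 1 of the 12 libraries was left out, and it passed the threshold in 2 of the alternatives, DESeq2 (-3.95) and the fit without YK_80d replicate 2. The number of genes of the set past the threshold at 9 d was 0 with edgeR, 2 with DESeq2 and 0 to 1 when 1 library was left out. Among the 7 other than CLDN4 it was 0 for age in YK in every alternative and 1 with DESeq2 for age in GS.

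The genes past the threshold at 9 d numbered 157, and 900 with DESeq2, 49 with the replicate block, 29 with only the 6 libraries compared, 39 without the libraries with muscle transcripts, 11 without those with skin transcripts and 5 to 284 with 1 library left out. For age in YK they numbered 186, and in the same order 853, 65, 46, 51, 14 and 27 to 245, and 72 with limma-voom. For age in GS there were 409, and 1465 with DESeq2, 1055 with only the 6 libraries compared, 150 without the muscle libraries and 78 to 532 with 1 library left out. For breed at 80 d there were 944, and 2202 with DESeq2, 290 without the muscle libraries and 255 to 1195 with 1 library left out. Deviations of same-numbered libraries correlated at -0.22 to 0.15, which does not settle whether replicate numbers pair the samples. The replicate block changed no call in the set.

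Differences of members that were not called changed sign in these cases, and the cause was not tested. At 9 d they were 5.09 for CLDN3, 0.47 for KRT8 and 1.04 for KRT18 without the skin libraries and -1.06 for EPCAM without the muscle libraries. For age in YK CLDN3 was 1.62 with limma-voom, 0.61 with the replicate block and 7.39 without the skin libraries, and KRT18 was 1.25 without the skin libraries. At 80 d EPCAM was 1.16 with limma-voom. With 1 library left out, the differences at 9 d ran from -4.35 to 0.011 for CLDN3, -0.65 to 1.55 for EPCAM and -1.05 to 0.30 for KRT8. Those for age ran from -1.71 to 2.32 for CLDN3 in YK, and in GS from -0.96 to 2.42 for CLDN3, -0.44 to 0.20 for KRT18 and -3.52 to 4.46 for ESRP1. Those at 80 d ran from -1.24 to 1.40 for EPCAM and -0.82 to 0.31 for KRT18. The within-group coefficient of KRT8 with CLDN4 was -0.10 without the skin libraries and -0.086 without the 2 libraries farthest from the median, and it ran from -0.10 to 0.34 with 1 library left out. The number of positive coefficients, 7 of 7, was 6 or 7 in every alternative. The epithelial covariate, the ratio, the skin sum without DSP and the coefficients over the 9 d libraries alone were added after seeing the data. Counts of a few fragments limit ELF3, ESRP1, CLDN3 and CDH1 outside YK_9d.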

Other observations

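Among the wider epithelial list, MYO5B, a motor protein that carries vesicles to the apical membrane, was the gene whose levels were most like those of CLDN4. Its coefficient with CLDN4 over the 12 libraries was 0.91 (rho = 0.86), and 0.136% of all genes had a higher one. It was picked after the values were seen, so this is a description. MYO5B stood at 3.90, 9.59 and 10.2 CPM in YK_9d, 2.81, 3.43 and 4.45 in GS_9d, 10.03, 6.24 and 8.17 in YK_80d and 2.81, 4.59 and 2.90 in GS_80d. As with CLDN4, the lowest YK_80d library was replicate 2 and the lowest YK_9d library replicate 1, but the whole range of MYO5B was far smaller. Its log2 difference at 9 d was -1.15 ± 0.40 (edgeR adjusted p = 0.205).

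ESRP2, the paralogue of ESRP1, was picked in the same way and was read where ESRP1 was nearly absent. It stood at 19.9, 32.5 and 30.2 CPM in YK_9d, 4.14, 0.211 and 22.4 in GS_9d, 32.9, 7.67 and 9.52 in YK_80d and 1.54, 0.871 and 1.24 in GS_80d. In GS_9d the library with the most ESRP2, replicate 3, was also the one with the most CLDN4, and likewise replicate 1 in YK_80d and replicate 2 in YK_9d. GS_80d ran in reverse, with the most ESRP2 in replicate 1, which had the least CLDN4, and the least in replicate 2, which had the most. The coefficient over the 12 libraries was 0.77 (rho = 0.78), and the difference at 9 d was -1.63 ± 1.10 (edgeR adjusted p = 0.567).

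With the group means left in, coefficients with CLDN4 were positive for 20 of the 27 tested genes of the wider epithelial list. Over the 12 libraries they ran from -0.61 to 0.91 with a median of 0.46. Of 13 keratinocyte and hair follicle genes 11 had a positive coefficient, with a median of 0.46. Over all genes the median was -0.02 and 48.9% were positive. The group means of CLDN4 led to its choice, and genes that passed the filter only through YK_9d tend to a positive coefficient. These counts are therefore no support.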
